A study of Zea mays with 11 samples.

Results

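Among genes above a minimum level in an anther RNA-seq count table, 2, Zm00001d045392 and Zm00001d012611, stood at least 4-fold higher in the first wild-type library than in the second. The study profiled maize (*Zea mays*) anthers in meiotic prophase I, with 3 libraries of the inbred line A344 (genotype WT) and 3 of the *pam1* mutant; no allele or background line is given for the mutant. PAM1 is a protein with an RNA recognition motif, and the RNA-seq data set the mutant transcriptome against that of A344. Totals were 1918457 to 2595247 counts per library. The labels do not state whether replicates were separate plants; the p-values thus reflect only the variation among these libraries, part of which may be technical.

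Anthers of grasses develop in a graded series along the tassel, and meiosis, the tapetum (the nurse layer around the meiocytes) and the outer wall layers progress together. Prophase I is long and covers pairing, synapsis and recombination of homologous chromosomes, and transcript levels in the anther change while it lasts. The question here was whether genes that separate A344 replicate 1 from 2 place the other libraries along a common order, as a stage axis would. The labels of all 6 libraries give the same stage, with no finer division, and stage itself was not tested.

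Members were Zm00001d rows with a ratio of at least 4 between A344 replicates 1 and 2, at least 20 CPM in A344 replicate 1 and a mean of at least 5 CPM in *pam1*. CPM are counts scaled by the total count of their library to 1 common size, and the ratio was taken after adding 1 CPM to both values. Rows Zm00001d027230 to Zm00001d027529 were left out (254 rows). Of 43892 remaining Zm00001d rows, 10606 passed both floors and 2 also passed the ratio, which is 0.0189% of the rows over the floors. The members were thus chosen by measured values, namely their CPM in A344 replicates 1 and 2 and their mean CPM in *pam1*, which are given as a description. A344 replicate 3 and the differences among the *pam1* libraries were not used in the choice. The files pair Zm00001d identifiers with no gene name or position, and neither member was matched in the RefSeq gene table at hand (0 of 2, assembly Zm-B73-REFERENCE-NAM-5.0), so no function, sequence or chromosome is given for either gene. The row of *pam1* itself was not used here as a check on the labels.

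Zm00001d045392 was uneven in both genotypes, in A344 partly through the choice itself. It stood at 24.4 CPM in A344 replicate 1 (59 counts), at 1.56 CPM in replicate 2 (3 counts) and at 74.0 CPM in replicate 3 (168 counts). A344 replicate 3, which the choice did not use, was thus the highest wild-type library and lay above replicate 1 as well as replicate 2. Its level was 3.04 times that of replicate 1 (exact conditional 95% interval 2.24 to 4.16) and 47.3 times that of replicate 2 (15.9 to 231.8). In *pam1* the gene stood at 121.9, 40.8 and 16.0 CPM in replicates 1 to 3 (248, 106 and 32 counts). These *pam1* libraries differed from each other 7.63-fold at the extremes (95% interval 5.26 to 11.4), and their range overlapped that of A344. The extreme libraries were picked by their level, which favours a larger fold, and the interval does not allow for that. Counting intervals cover counting error only and not the spread between anther samples.

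Zm00001d012611 was uneven in A344, as the choice requires, and nearly level in *pam1*. It stood at 22.7 CPM in A344 replicate 1 (55 counts), at 4.69 CPM in replicate 2 (9 counts) and at 12.3 CPM in replicate 3 (28 counts). Replicate 3 lay between the libraries that chose the gene, at 0.543 times replicate 1 (95% interval 0.332 to 0.871) and 2.63 times replicate 2 (1.21 to 6.33). In *pam1* it stood at 12.8, 15.8 and 12.5 CPM (26, 41 and 25 counts). All 3 *pam1* values lay inside the wild-type range, close to A344 replicate 3. Choosing on extreme wild-type libraries favours that position, and a wider spread in A344 than in *pam1*. Nothing is read from either. The highest and lowest *pam1* libraries differed 1.27-fold, with a 95% interval of 0.751 to 2.17 that includes no difference. That interval likewise does not allow for picking the libraries by level.

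**Figure D1:**
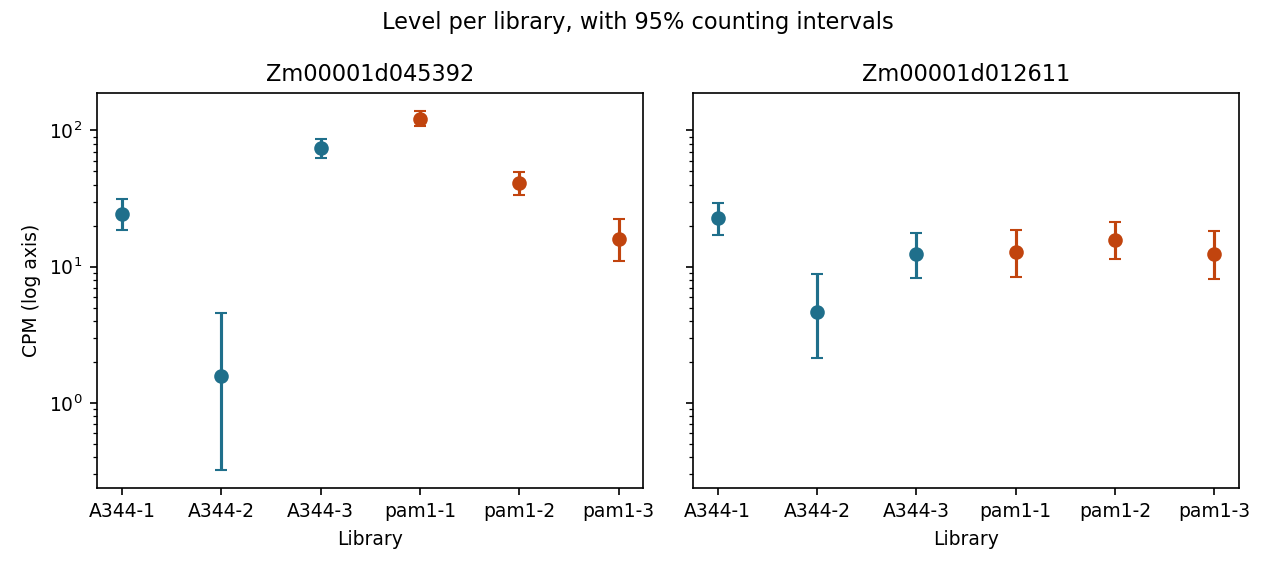
Level of each gene (CPM, log axis) in the 6 libraries, blue for A344 and orange for pam1, with exact Poisson 95% counting intervals as bars. Zm00001d045392 runs from 1.56 to 121.9 CPM with the genotypes overlapping, while the pam1 points of Zm00001d012611 sit between 12.5 and 15.8 CPM.

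The spread among *pam1* libraries therefore set the pair apart from each other. Ranked by the range of log2(CPM + 1) over the 3 *pam1* libraries, Zm00001d045392 was number 11 of 18152 rows over the *pam1* floor, at a range of 2.86. Zm00001d012611 was number 9793, at 0.32, near the median of 0.34 over these rows. The coefficient of variation was 93.0% in *pam1* for the first gene (59.6 ± 55.4 CPM, SD, n = 3) and 13.4% for the second (13.7 ± 1.84 CPM, SD, n = 3).

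To ask whether the wild-type libraries lay along a common axis, each library was placed on the log2(CPM + 1) scale of a gene, with A344 replicate 2 at 0 and A344 replicate 1 at 1. A344 replicate 3 took position 1.47 for Zm00001d045392 and 0.60 for Zm00001d012611, so the genes gave different orders of the wild-type libraries. The *pam1* libraries took positions 1.69, 1.22 and 0.82 for the first gene, which placed 2 of them beyond A344 replicate 1. For the second gene the positions were 0.62, 0.76 and 0.60, all between the wild-type ends. With 2 members that place replicate 3 differently, the choice at 4-fold defined no single order.

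Neither gene was called different between the genotypes. In the fit of all 6 libraries 14.9% of rows were called, 8.18% higher and 6.68% lower in *pam1* (edgeR's quasi-likelihood test, Benjamini-Hochberg adjusted p under 0.05 over 18491 rows), and 0 of the 2 genes were among them. The rule used wild-type libraries of this contrast and chose genes with a wide wild-type spread, so nothing is read from that 0. Zm00001d045392 stood at 33.3 ± 37.0 CPM in A344 and 59.6 ± 55.4 CPM in *pam1* (SD, n = 3 each), a log2 difference of 0.77 ± 0.70 SE in *pam1* (edgeR adjusted p = 0.534). That difference ranged from −0.24 without *pam1* replicate 1 to 2.06 without A344 replicate 3. With no filter on low counts the gene was called by edgeR (log2 0.75, adjusted p = 0.000233, where the alternatives together spanned 0.000233 to 0.893).

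For Zm00001d012611 the A344 level was 13.2 ± 9.05 CPM and the *pam1* level 13.7 ± 1.84 CPM (SD, n = 3 each). Its log2 difference was −0.0048 ± 0.37 SE (edgeR adjusted p = 0.996). At an unadjusted p under 0.05, edgeR and DESeq2 each called 0 of the 2. The authors' deposited table gives adjusted p-values of 0.885 and 0.998 for Zm00001d045392 and Zm00001d012611.

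Against A344 replicate 3 alone, which leaves out the wild-type libraries that chose the genes, edgeR called 8.31% of 19883 rows and again 0 of the 2. The lone A344 library is assumed there to vary like the *pam1* libraries. The log2 difference of *pam1* from A344 replicate 3 was −0.36 ± 0.56 SE for Zm00001d045392 (edgeR adjusted p = 0.781) and 0.14 ± 0.33 SE for Zm00001d012611 (edgeR adjusted p = 0.872). Without *pam1* replicate 1, the highest library of the first gene, its difference was −1.36 and was called (edgeR adjusted p = 8.92e-05, where the alternatives together spanned 8.92e-05 to 0.901).

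The 2 rows listed just before Zm00001d045392 in the count table were ordered like it across the A344 libraries. The row after it, Zm00001d045393, had the same A344 order over a narrower range. It stood at 6.26 to 11.0 CPM in A344 and 7.49 to 11.2 CPM in *pam1*. Zm00001d045386, 6 places before Zm00001d045392, also had that order, at 13.6, 7.30 and 18.1 CPM in A344 replicates 1 to 3. Of the 6 rows on either side of Zm00001d045392, the 2 just before it, Zm00001d045390 and Zm00001d045391, had the largest ratios of A344 replicate 1 to 2. Zm00001d045390 stood at 12.0, 1.04 and 37.0 CPM in A344 replicates 1 to 3 and at 102.7, 36.6 and 20.5 CPM in *pam1* replicates 1 to 3. Zm00001d045391 stood at 38.4, 12.5 and 91.6 CPM in A344 and at 131.7, 89.4 and 80.9 CPM in *pam1*. These 2 rows and Zm00001d045392 were all lowest in A344 replicate 2, highest among wild-type libraries in A344 replicate 3, and highest of all in *pam1* replicate 1.

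Zm00001d045390 had a ratio of 6.35 between A344 replicates 1 and 2 and missed membership only through the floor of 20 CPM. Zm00001d045391 had a ratio of 2.92. The other rows within 6 places had ratios of 0.615 to 1.76. Among *pam1* libraries, Zm00001d045390 ranked 25 of 18152 rows by its range, and Zm00001d045391 ranked 2406. The sources used here do not say how reads of similar or overlapping genes were counted, and whether these rows share reads was not tested. Neither neighbour was called between the genotypes (edgeR adjusted p = 0.116 for Zm00001d045390 and 0.115 for Zm00001d045391).

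**Figure D2:**
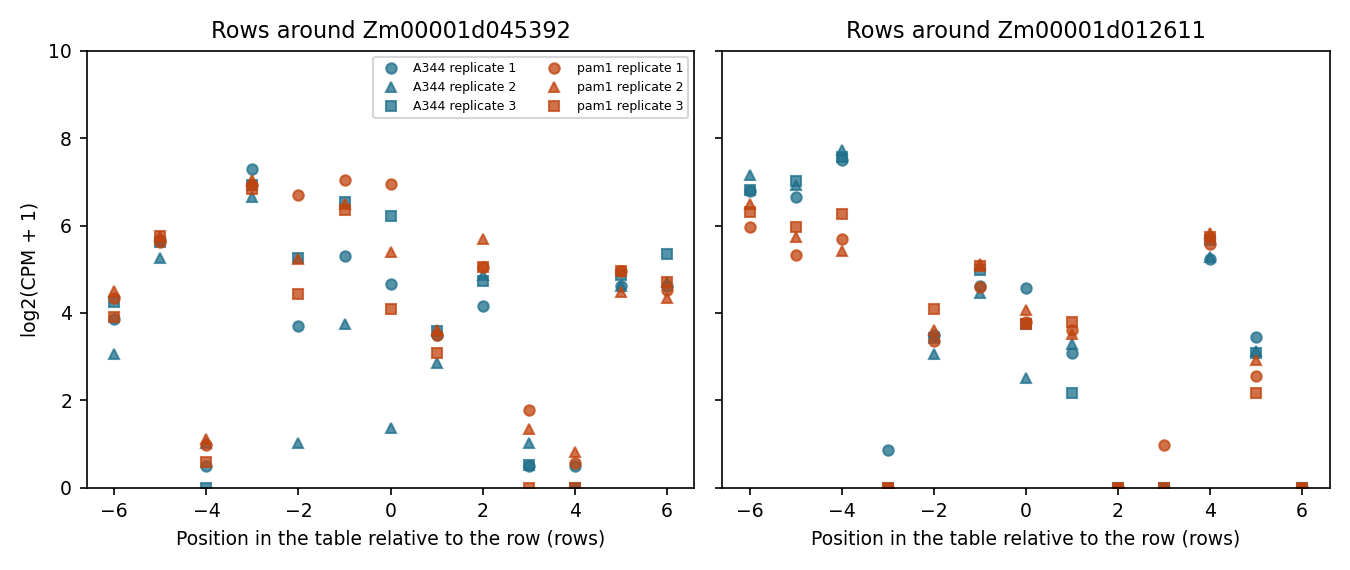
Level, as log2(CPM + 1), of the rows listed up to 6 places before and after each gene, by library (blue A344, orange pam1; circles, triangles and squares for replicates 1, 2 and 3). Beside Zm00001d045392 the 2 rows before it have ratios of A344 replicate 1 to 2 of 6.35 and 2.92, and the others 0.615 to 1.76. Around Zm00001d012611 no other row has a ratio over 1.83, a value that rests on a row with 2 counts over all libraries.

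The same comparison over 18384 rows with a mean of at least 10 counts, by the root mean square distance of centred log2(CPM + 1) over the 6 libraries, also gave Zm00001d045390 as the row most like Zm00001d045392 (distance 0.46, against a median of 1.80 over rows). Next came Zm00001d052333 (0.62) and Zm00001d012221 (0.70), whose identifiers are far from it in the table. Zm00001d052333 stood at 14.0, 1.04 and 15.9 CPM in A344 and at 12.5 to 69.8 CPM in *pam1*, also lowest in A344 replicate 2 and highest in *pam1* replicate 1. The row most like Zm00001d012611 was Zm00001d023430 (0.20, against a median of 0.66), at 54.9, 18.8 and 39.2 CPM in A344 and 38.4 to 38.9 CPM in *pam1*. Within 6 places of Zm00001d012611 the ratios of other rows were 0.777 to 1.83. The highest was that of Zm00001d012608, which has only 2 counts over all libraries. The next was 1.37, for Zm00001d012609. These likeness measures and neighbours were chosen after values had been seen.

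Few rows lay near the limit, and the reverse rule chose more. Just inside was Zm00001d012611, at a ratio of 4.17, and just outside were Zm00001d031141 at 3.78, Zm00001d053618 at 3.71 and Zm00001d035566 at 3.50. Those 3 rows were better measured, at 119.4 to 168.1 CPM in A344 replicate 1 and 33.4 to 43.8 CPM in replicate 2. In A344 replicate 3 they lay between these, at 127.7, 60.8 and 84.6 CPM. The reverse rule, A344 replicate 2 over 1, chose 15 of 10472 rows over its floors (0.143%). For 15 of these 15 rows A344 replicate 3 lay between the other wild-type libraries, with a median position of 0.53.

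**Figure D3:**
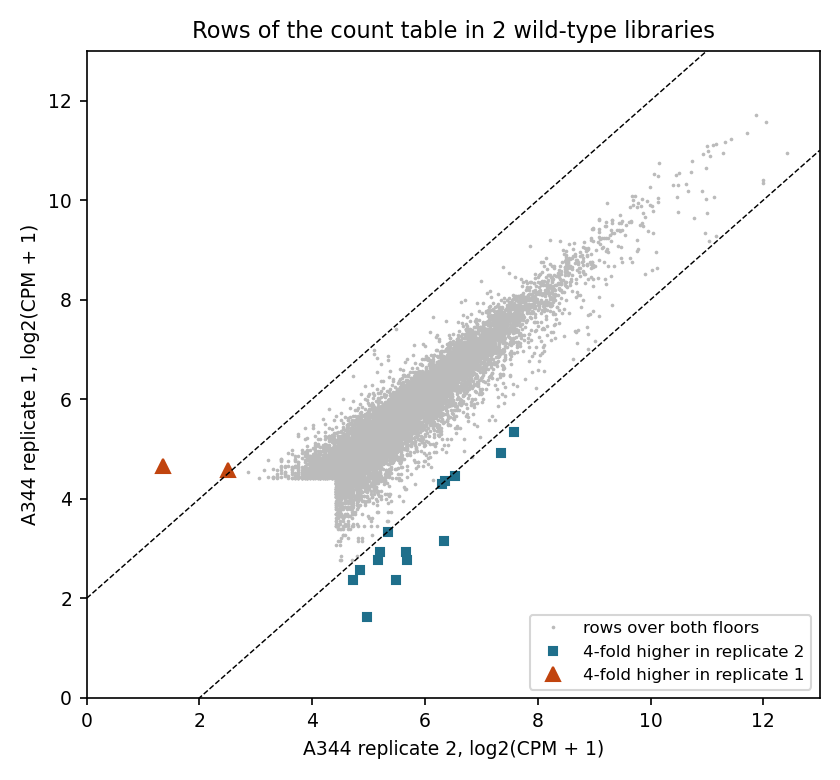
Each row with at least 20 CPM in either library and a mean of at least 5 CPM in pam1, in A344 replicate 1 against replicate 2, both as log2(CPM + 1), with dashed lines at a 4-fold ratio. The 2 triangles (higher in replicate 1) lie at low levels, and the 15 squares are the rows higher in replicate 2.

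With the limits applied to other pairs of wild-type libraries, 0 rows were 4-fold higher in A344 replicate 1 or 2 than in replicate 3. In the other direction 7 of 10686 rows (0.0655%) were higher in replicate 3 than in replicate 1. There were 9 (0.0842%) higher than in replicate 2. Pairs of *pam1* libraries gave 0 to 9 rows under the same limits, at most 0.0834%. Across 18491 rows the correlation of log2 CPM was 0.952 between A344 replicates 1 and 2, 0.965 between 1 and 3 and 0.962 between 2 and 3; rows of a library are not independent.

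Lower limits gave larger sets, used here after values had been seen. At a ratio of at least 3 there were 8 rows (0.0754% of rows over the floors), and at least 2 there were 129 (1.22% of rows over the floors). In the set of 129, A344 replicate 3 lay between the other wild-type libraries for 114 rows and nearer to replicate 1 for 97, at a median position of 0.71. In the reverse set at the same limit, of 229 rows, it lay between for 216, at a median position of 0.54. Choosing rows on 2 extreme libraries favours a position between them for any other library, so this is not support for an axis.

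The differences among *pam1* libraries were not used in the choice. In these larger sets the highest *pam1* library changed with the direction of the rule. In the set of 129, *pam1* replicate 1 was highest for 87 rows (67.4%), replicate 2 for 23 and replicate 3 for 19. In the reverse set replicate 1 was highest for 31 of 229 rows (13.5%), replicate 2 for 120 and replicate 3 for 78. Over all rows that passed the respective floors, *pam1* replicate 1 was highest for 34.7% and 33.9%. Of the 129 rows, 101 (78.3%) were higher in *pam1* replicate 1 than in *pam1* replicate 2 and 104 (80.6%) higher than in replicate 3. Over all 10606 rows that passed the floors the shares were 50.6% and 53.0%. In the reverse set 48 of 229 rows (21.0%) were higher in *pam1* replicate 1 than in replicate 2 and 70 (30.6%) higher than in replicate 3, beside 49.7% and 52.2% of all rows over those floors. The median log2 difference of *pam1* replicate 1 from replicate 2 was 0.19 in the first set and −0.31 in the reverse set. Deviations from group means were also related over all 18491 fitted rows. Those of *pam1* replicate 1 had r = 0.134 with A344 replicate 1 and r = −0.133 with A344 replicate 2. Those of *pam1* replicates 2 and 3 had r = 0.118 and 0.128 with the A344 library of the same number. Deviations within a group cancel out by construction, so a positive r with an A344 library forces a negative r with another. Whether the pattern of the larger sets goes beyond this shared deviation was not tested. The 15 reverse rows at 4-fold did not follow the larger reverse set: 12 (80%) were higher in *pam1* replicate 1 than in replicate 3, and 7 (46.7%) higher than in replicate 2. In the set of 129, *pam1* replicates 2 and 3 had nearly the same median position, 0.63 and 0.62, beside 0.79 for replicate 1. Zm00001d045392 was highest in *pam1* replicate 1, but A344 replicate 3 was its highest wild-type library and *pam1* replicate 3 its lowest *pam1* library. Zm00001d012611 was highest in *pam1* replicate 2. In these bulk samples, more cells of a type and more RNA per cell cannot be told apart.

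**Figure D4:**
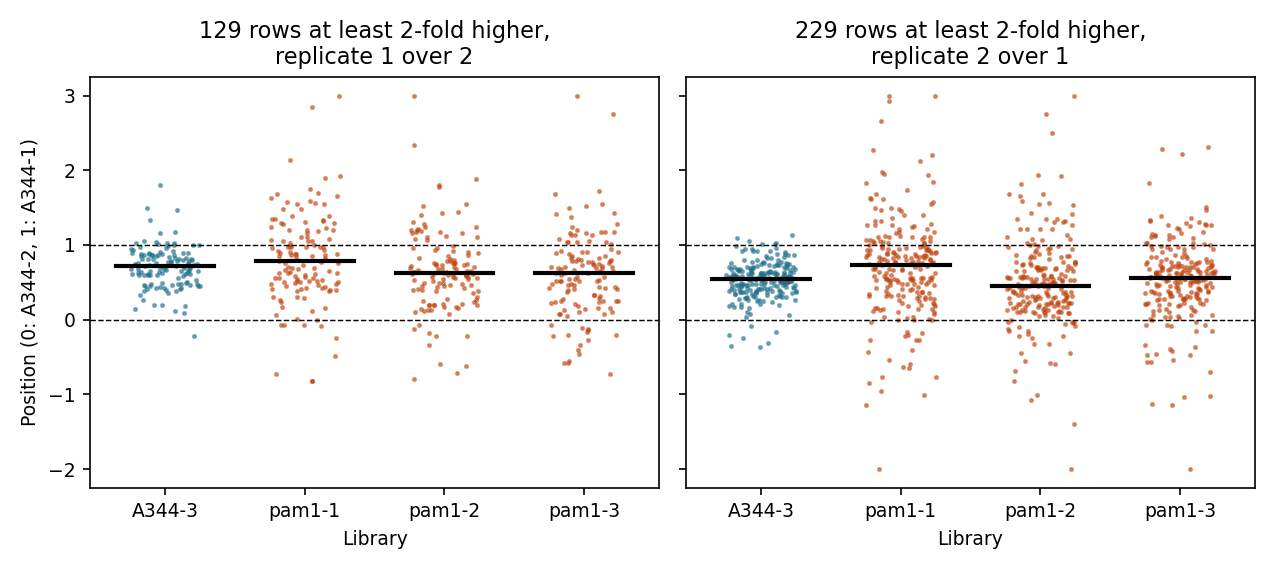
Position of A344 replicate 3 and of the pam1 libraries between A344 replicate 2 (0) and replicate 1 (1), for 129 rows at least 2-fold higher in replicate 1 (left) and 229 higher in replicate 2 (right). Points are rows, black lines medians, and 9 points beyond −2 or 3 are drawn at those limits. On the left the median of pam1 replicate 1 (0.79) lies above those of replicates 2 (0.63) and 3 (0.62).

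Of the 8 rows at a ratio of at least 3, edgeR called 1 higher and 0 lower in *pam1* against all A344 libraries, namely Zm00001d045489 (log2 1.19 ± 0.28 SE, adjusted p = 0.0116). It stood at 112.8, 34.4 and 86.3 CPM in A344 and at 216.7, 188.4 and 139.3 CPM in *pam1*, without overlap of the groups. DESeq2 called 0 of the 8, with 7.61% of all rows called. Of the 129 rows, edgeR called 11 higher and 8 lower (14.7%, beside 14.9% of all rows); the rule used this contrast, so nothing is read from these counts. Against A344 replicate 3 alone, edgeR called 3 of the 8 rows higher and 0 lower, and 11 of the 129 higher and 14 lower (19.4%, beside 8.31% of all rows). That fit leaves out the libraries that set the ratio, but the floors on CPM and on *pam1* still applied to these rows. They were also listed after values had been seen. The share of all rows includes rows below those floors, and the share over rows above them was not computed. Nothing is therefore read from these counts either.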

How the data were processed

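Raw counts, as deposited by the authors, cover 44474 rows in 6 anther RNA-seq libraries; 0 of its columns were left unused. The authors' deposited comparison holds a mean signal, a log2 fold change with its error and statistic (kept here as scores) and p-values per row, per the file headers. Per the submitters' processing notes, the tools were Bowtie2 2.4.5, MACS2, STAR and DESeq2, with no role stated. The RIP peak list of the study was not used. The members, sets and tests were chosen with earlier results of these data known.

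The test was that of edgeR 4.0.16 under R 4.3.3 (TMM, filterByExpr, quasi-likelihood test, two-sided, Benjamini-Hochberg), as *pam1* minus A344. DESeq2 1.42.0 was an alternative. On simulated counts edgeR recovered 94.8% of 97 fitted rows changed 4-fold and 32.3% of 99 changed 2-fold with 3 libraries per group (18093 rows, 4 false calls). For *pam1* against A344 replicate 3 alone it recovered 73.7% of 99 and 7% of 100 (18388 rows, 2 false calls). Counts were simulated with the same dispersion in every row and no replicate effect. The coefficients of variation in A344 were 111% for Zm00001d045392 and 68.3% for Zm00001d012611. The simulated shares therefore do not give the power for these genes. Intervals are exact Poisson or exact conditional binomial at 95%, covering counting error only.

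The named-gene rule took members by CPM, ratio, position and call, and the rows nearest the limit; neighbours, likeness rows and Zm00001d045489 were chosen after values were seen. No gene list could be applied without names: 0 members were matched. Same-numbered libraries of the 2 groups deviated together, though weakly, from their group means. The correlations across 18491 rows were 0.134, 0.118 and 0.128 for replicates 1 to 3. Libraries of unlike number had correlations of −0.145 to 0.017. Deviations within a group cancel out by construction, so positive values for like numbers force negative values among the others. The numbers were taken as pairs only in the alternative fit with a replicate block, and the main fits were unpaired. This pairing comes from the data and not from the labels. CPM, positions and intervals were computed in Python 3.11.15 with pandas 2.3.3, numpy 2.4.6 and scipy 1.17.1, and plots with matplotlib 3.10.9.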

Additional observations from a re-analysis of the deposited data

How the results depend on the processing

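The choice of rows rests on its limits. There were 8 members at a ratio of at least 3, 129 at least 2 (added after seeing the data), 1 at least 8, 1 with 2 CPM added in place of 1, and 0 at a floor of 50 CPM, which leaves no position to compute. Fewer rows pass stricter limits by construction. The median position of A344 replicate 3, 1.03 over the 2 genes, was then 0.75, 0.71, 1.47 and 1.53, and 0.80 with no *pam1* floor. The median position of the *pam1* mean, 0.95, was 0.69 at a ratio of at least 2, 1.24 at least 8, 1.27 with 2 CPM added and 0.66 with no *pam1* floor. It ranged from 0.85 to 1.07 when 1 *pam1* library was left out. TMM scaling, 0.5 CPM added and the rows Zm00001d027230 to Zm00001d027529 kept gave 2 members each. A move was judged against the SD of the 3 *pam1* library medians over the 2 genes, 0.22. That SD does not measure the uncertainty of A344 replicate 3. With 2 genes each median is a midpoint of unlike positions. These were 1.47 and 0.60 for A344 replicate 3, and 1.24 and 0.66 for the *pam1* mean.

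Of the genes, 1 was called, as higher, with no low-count filter (Zm00001d045392), where 4073 of 36964 rows were called, against 2748 of 18491; the cause was not tested. Against A344 replicate 3 alone, leaving out 1 *pam1* library gave 0 to 1 called. The log2 difference of Zm00001d045392 ranged from −0.24 (without *pam1* replicate 1) to 2.06 (without A344 replicate 3) when 1 library was left out. Against A344 replicate 3 it ranged from −1.36 (without *pam1* replicate 1) to 0.056 (without *pam1* replicate 3). That of Zm00001d012611 changed sign to 0.022 with library size alone, and lay between −0.37 and 0.61 when 1 library was left out, the ends belonging to A344 replicates 2 and 1. With the replicate number as a block, in the pairing above, it was 0.086 (edgeR adjusted p = 0.901), and Zm00001d045392 stood at 0.88 (0.369). The block changed no call of either gene, and 3352 rows of the table were called beside 2748. Depth limits both genes in A344 replicate 2, where Zm00001d045392 rests on 3 counts and Zm00001d012611 on 9.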

Other observations

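Without the *pam1* floor a further row met the rule, Zm00001d043868, at a ratio of 4.21. It stood at 40.5, 8.86 and 30.0 CPM in A344 replicates 1 to 3 and at 1.47, 2.70 and 3.50 CPM in *pam1* replicates 1 to 3. The groups did not overlap. The row was listed for passing the A344 replicate 1 floor and missing the *pam1* floor, which favours such a gap. A344 replicate 3 lay between the other wild-type libraries, which choosing on those libraries also favours. Nothing is read from either. With the ratio alone and no floor on CPM, 24 rows met it.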
